A study of Gossypium hirsutum with 9 samples.

Results

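The MRS2 magnesium transporter genes of upland cotton (Gossypium hirsutum) were examined in elongating fibres, each of which is 1 long cell growing from the seed surface. The genes were taken by name, as every gene whose symbol in the expression table is MRS2 with a suffix. This gave 28 of 70478 genes, with 8 different symbols. Of these genes, 13 lie on A-subgenome chromosomes, 13 on D-subgenome chromosomes and 2 on unplaced scaffolds, as their identifiers state. The family was selected on the FPKM of 1 member, Gh_A01G0095 (MRS2-3), which stood far lower in the RNAi libraries than in WT. That difference is therefore described without a test, and the question put to the others was whether any stood higher where it was low.

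Fibre RNA was sequenced from field-grown cotton in which the WRKY transcription factor GhWRKY16 was targeted by RNA interference (RNAi) and from wild-type cotton (WT), both at 9 days post anthesis. Values of 5 RNAi libraries (replicates 2 to 6) and 3 WT libraries (replicates 1 to 3) were used, and RNAi replicate 1 was not analysed here. The labels state neither the promoter of the construct nor the number of transgenic lines or pooled plants. The spread behind each p-value is that between libraries and may be partly technical. No gene in the table carries the symbol WRKY16, so the silencing itself was not checked.

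MRS2 proteins are membrane channels of the CorA type, found from bacteria to plants, that carry magnesium and open and close with its concentration inside the cell. A Gly-Met-Asn motif next to the pore marks the family. Magnesium is the counter-ion of ATP and a cofactor of many enzymes, and plants place different MRS2 members in the plasma membrane, the vacuole membrane, the endoplasmic reticulum and the chloroplast envelope. The cotton symbols match names of Arabidopsis genes, most are shared by several cotton genes, and the roles given here are those of the Arabidopsis genes.

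Expression was deposited as FPKM, a level per transcript length and library size, without read counts. The read depth relative to WT replicate 1, derived from ratios of low values, ranged from 0.366 in RNAi replicate 4 to 2.19 in RNAi replicate 5. The fibre genes E6 and EXPA4 summed to at least 30949 and 6940 FPKM in every library. E6 spanned 30949 to 39487 FPKM in RNAi and 36116 to 39200 FPKM in WT, and EXPA4 6940 to 7972 FPKM and 7630 to 8248 FPKM. No gene carried the symbol of the fibre markers LTP3 and RDL1. The fibre markers TUBB1 and FLA7 leaned higher in RNAi, with overlapping ranges. TUBB1 summed to 692 to 966 FPKM in RNAi and 602 to 753 FPKM in WT, and FLA7 to 453 to 1508 FPKM and 311 to 578 FPKM. The seed storage genes LEGA and LEGB were listed at 0 throughout. The 8 genes of the leaf protein RBCS summed to 7.80 to 12.2 FPKM in RNAi and 2.02 to 4.40 FPKM in WT. The part of RBCS-expressing tissue in the results was not tested. In bulk RNA, fewer cells of a type and less RNA per cell cannot be told apart.

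The 4 genes named MRS2-3, after an Arabidopsis member known for its part in pollen development, include the most abundant member of the family and the gene it was selected on. Gh_A01G0095 had 0.980, 1.11, 3.22, 0.954 and 1.59 FPKM in RNAi replicates 2 to 6, against 21.8, 24.1 and 22.2 FPKM in WT replicates 1 to 3. The groups lay far apart, and RNAi replicate 4, the shallowest library, was the highest of the RNAi libraries. The means were 1.57 ± 0.957 FPKM in RNAi (SD, n = 5) and 22.7 ± 1.24 FPKM in WT (SD, n = 3). The WT mean was 14.4 times the RNAi mean, and 19.6 times without RNAi replicate 4. The gene ranked 15 of 28 by mean level in RNAi and 3 of 28 in WT.

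Its namesake on D01, Gh_D01G0089, did not follow. Gh_D01G0089 had 39.2, 41.9, 40.4, 40.7 and 40.1 FPKM in RNAi, against 39.4, 46.7 and 37.9 FPKM in WT. All RNAi values lay inside the WT range. The log2 fold change of FPKM + 1 was -0.02 ± 0.10 (SE), with a 95% interval from -0.25 to 0.20 (limma adjusted p = 0.975). On the linear scale this interval spans 0.840-fold to 1.15-fold. Gh_D01G0089 was the most abundant MRS2 gene in both groups. The remaining MRS2-3 genes, Gh_A13G0398 and Gh_D13G2546, reached no more than 0.0604 and 0.0335 FPKM in any library.

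The A01 and D01 genes together averaged 42.0 ± 1.32 FPKM in RNAi (SD, n = 5) and 64.0 ± 5.87 FPKM in WT (SD, n = 3). The A01 gene supplied 2.29% to 7.38% of that sum in the RNAi libraries and 34.0% to 36.9% in the WT libraries. How reads that fit both copies were counted is not given in the sources used here, so low values of Gh_A01G0095 beside an abundant namesake are uncertain.

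**Figure D1:**
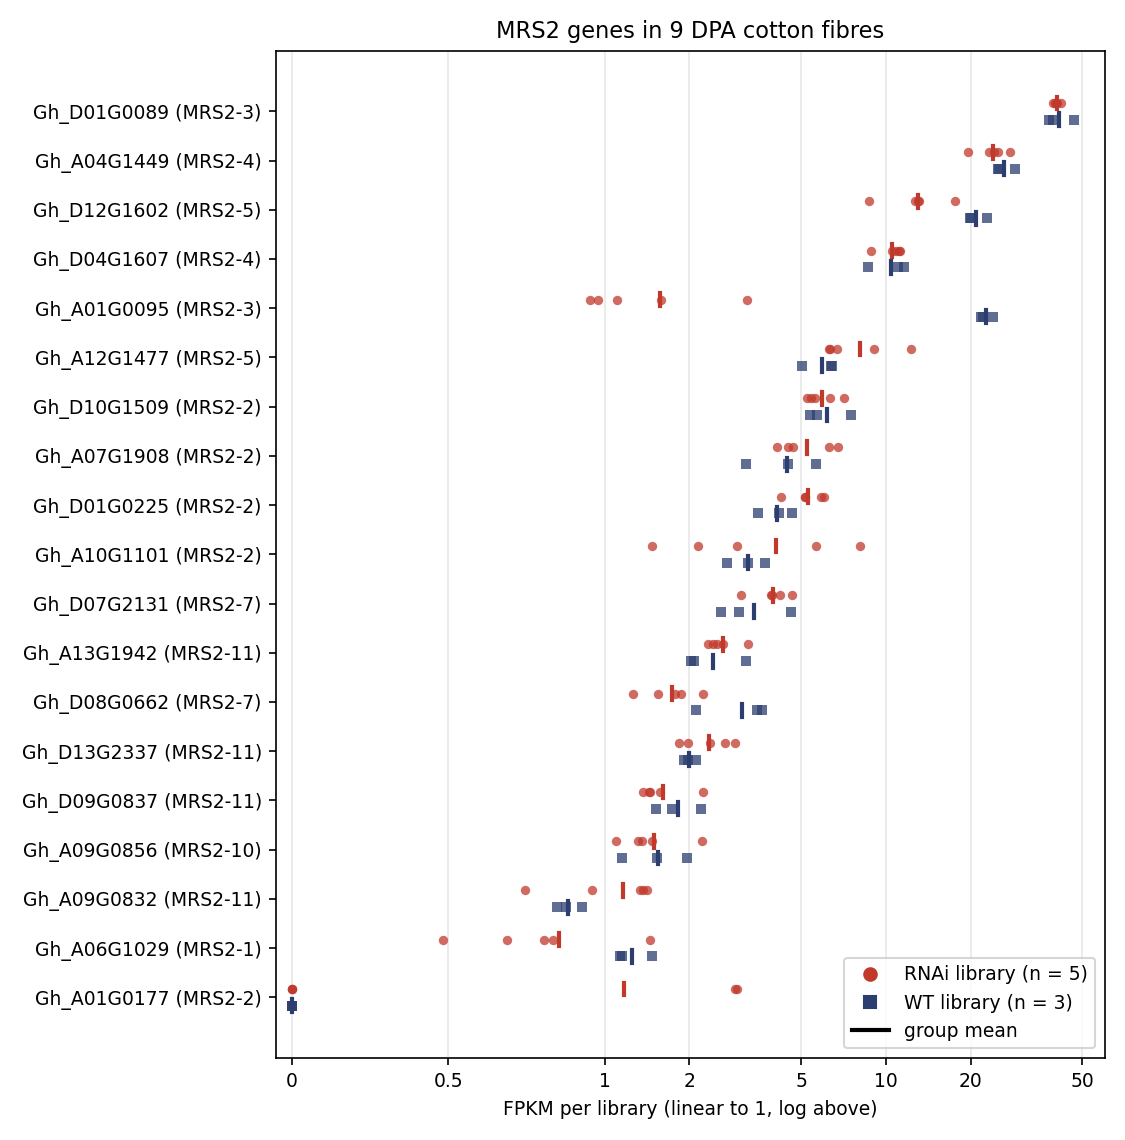
FPKM (horizontal axis, linear up to 1 and logarithmic above) of the 18 tested MRS2 genes and of Gh_A01G0177, with 1 symbol per library and a short bar at each group mean. RNAi circles lie above WT squares in each row, and the groups stand far apart only for Gh_A01G0095, at 0.954 to 3.22 FPKM in RNAi against 21.8 to 24.1 FPKM in WT.

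The other MRS2 genes were then examined for higher levels in RNAi. The test covered genes that reached 1 FPKM in 3 or more libraries, as 18 of the 28 members did. Of the 17 tested members other than Gh_A01G0095, 0 passed limma's threshold of adjusted p under 0.05 in either direction, where 0.167% of all 34051 tested genes passed. At an unadjusted p under 0.05 there were 2 members, both lower in RNAi, against 5.86% of all genes. The log2 fold change was positive in 9 members and negative in 8, with a median of 0.02, beside a median of -0.02 over all tested genes. Among the positive ones, Gh_A09G0832 (MRS2-11) passed the filter only through RNAi libraries, so its sign is tied to the filter. Among the negative ones, Gh_A06G1029 (MRS2-1) would not have passed without the WT libraries, so its sign is tied to it too. The log2 fold change ranged from -0.68 to 0.36, and the adjusted p from 0.538 to 0.983.

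The intervals, each taken singly, give the size of rise that the spread between these libraries still allowed. In this fit, which leaves replicate numbers out, the highest upper bound of a 95% interval was 1.95-fold, for Gh_A10G1101 (MRS2-2). All 17 upper bounds thus lay under 2-fold. These folds refer to FPKM + 1 and understate changes of low genes. Changes within these intervals could not be told from none with this number of libraries.

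**Figure D2:**
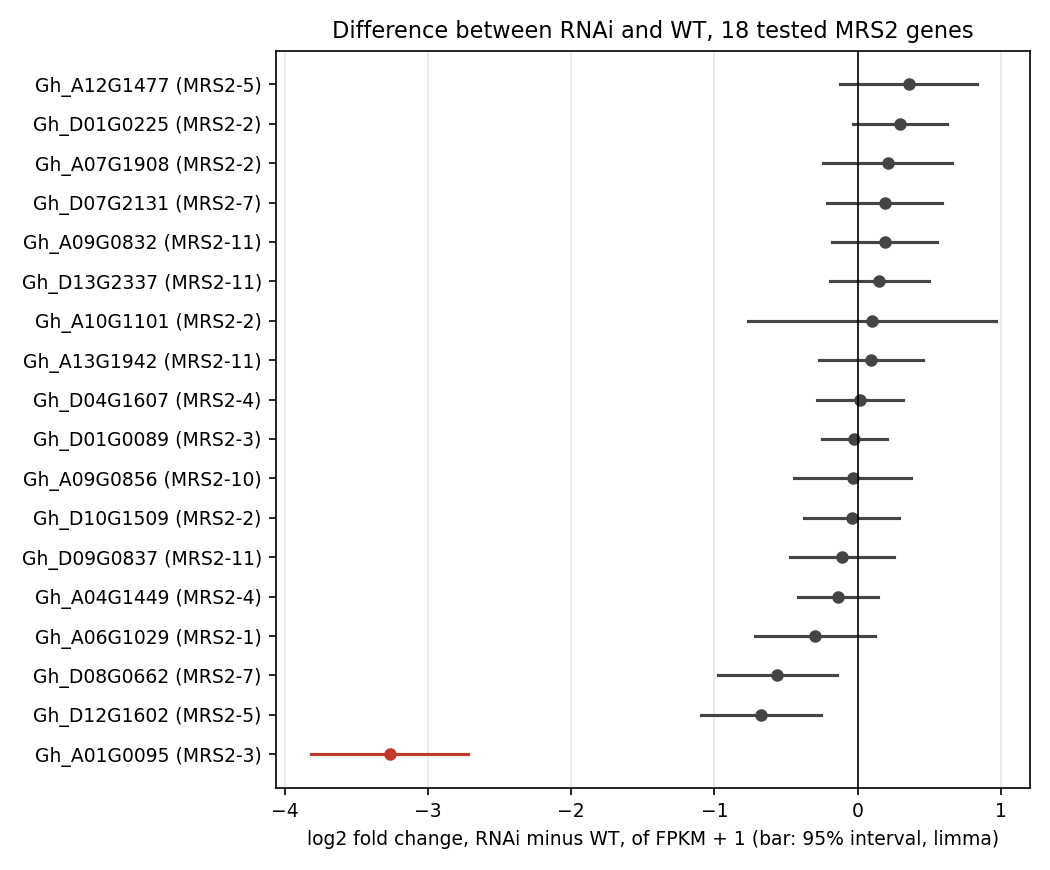
Log2 fold change of FPKM + 1 (RNAi minus WT, horizontal axis) for the 18 tested MRS2 genes, with 95% intervals from limma. Gh_A01G0095, in red, was the gene the family was picked for, and no test is read from its interval. The other 17 lie between -0.68 and 0.36.

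MRS2-4 is a magnesium transporter that supports Arabidopsis growth on low magnesium, and its cotton namesakes, summed by symbol, were the next most abundant after MRS2-3, at 34.5 ± 3.76 FPKM in RNAi and 36.8 ± 0.713 FPKM in WT (SD, n = 5 and 3). Gh_A04G1449 had 25.1, 23.3, 19.7, 24.2 and 27.6 FPKM in RNAi, against 25.2, 25.0 and 28.8 FPKM in WT. Gh_D04G1607 had 11.1, 10.9, 8.89, 10.5 and 11.2 FPKM in RNAi, against 11.6, 11.0 and 8.64 FPKM in WT. The groups overlapped for both genes. Their log2 fold changes were -0.14 ± 0.13 and 0.02 ± 0.13 (SE; limma adjusted p = 0.895 and 0.983). The A04 gene was thus held to at most 1.11-fold and the D04 gene to at most 1.247-fold by the upper bounds of their intervals. The remaining MRS2-4 genes are on A13, listed at 0 in every library, and on D13, where WT replicate 1 alone had a value (0.0963 FPKM).

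MRS2-5 and MRS2-1 sit in the vacuole membrane of Arabidopsis, the store of most cellular magnesium. Gh_D12G1602 (MRS2-5) had 17.6, 12.7, 8.70, 12.99 and 13.1 FPKM in RNAi, against 19.9, 20.1 and 22.9 FPKM in WT. It was the 1 tested member besides Gh_A01G0095 whose groups did not overlap, which 4.07% of all tested genes did not. Its log2 fold change was -0.68 ± 0.19 (SE; 95% interval -1.09 to -0.26) and did not pass (limma adjusted p = 0.538). Its namesake Gh_A12G1477 had 12.3, 9.05, 6.31, 6.27 and 6.73 FPKM in RNAi, against 6.43, 6.41 and 5.01 FPKM in WT. RNAi replicates 2, 3 and 6 were above the WT range of this gene and RNAi replicates 4 and 5 inside it. This gave a log2 fold change of 0.36 ± 0.21 (SE), with an adjusted p of 0.874 by limma.

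The MRS2-5 genes thus lay on opposite sides. The A12 gene held 41.1%, 41.6%, 42.0%, 32.5% and 33.9% of the pair's FPKM in RNAi, against 24.4%, 24.2% and 17.9% in WT. The shares did not overlap, which was also so for 4.86% of 7309 same-symbol pairs in which the A and D copies were each the 1 gene of that symbol on chromosomes of the same number. A limma test of the log2 ratio of A over D copy across all these pairs, chosen after seeing the data, gave a change of 1.03 ± 0.18 (SE; 95% interval 0.63 to 1.44). It did not pass (adjusted p = 0.0818, and 0.0784 to 0.376 with single libraries left out), where 0.233% of the pairs passed. The pair's sum was 29.8, 21.8, 15.01, 19.3 and 19.9 FPKM in RNAi, against 26.3, 26.5 and 28.0 FPKM in WT. RNAi replicate 2 was above every WT library and the other RNAi libraries were below them.

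**Figure D3:**
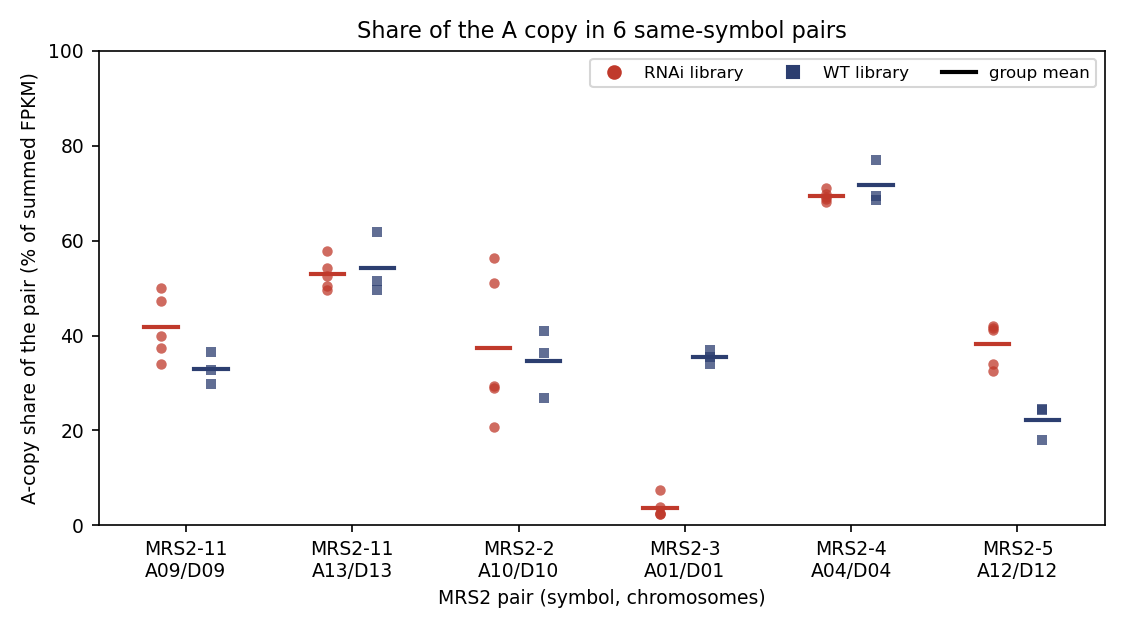
Share of the A copy in the summed FPKM of the pair (vertical axis, percent) for the 6 MRS2 pairs with both copies tested, with 1 symbol per library and bars at group means, RNAi left of WT. RNAi and WT separate in the MRS2-3 pair (2.29% to 7.38% against 34.0% to 36.9%) and in the MRS2-5 pair (32.5% to 42.0% against 17.9% to 24.4%).

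In the other 4 pairs with both copies tested, the A-copy shares of the groups overlapped. These were MRS2-4 on A04 and D04, MRS2-2 on A10 and D10, and MRS2-11 on A09 and D09 and on A13 and D13. In the first 2 and the A13 and D13 pair the RNAi minus WT difference in log2 ratio lay between -0.16 and 0.14, with adjusted p from 0.909 to 0.977 in the same limma test. For the A09 and D09 pair no test is read, since its A copy, Gh_A09G0832, passed the filter only through RNAi libraries.

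The MRS2-1 genes were low. Gh_A06G1029 averaged 0.853 ± 0.363 FPKM in RNAi (SD, n = 5) and 1.253 ± 0.190 FPKM in WT (SD, n = 3), and RNAi replicate 2, at 1.45, lay among the WT values. The difference on the log2 scale was -0.30 ± 0.19 (SE). Gh_A06G1029 reached 1 FPKM in every WT library but in RNAi only in replicate 2. It would not have passed the filter without WT, so its test is not read. Gh_D06G1243 stayed under 1 FPKM in every library and Gh_D09G0877 reached no more than 0.203 FPKM.

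MRS2-2, also known from Arabidopsis pollen, is the most frequent symbol with 8 genes. Gh_D10G1509 averaged 5.94 ± 0.777 FPKM in RNAi and 6.18 ± 1.15 FPKM in WT (SD, n = 5 and 3; limma adjusted p = 0.969). Gh_A07G1908 averaged 5.26 ± 1.19 FPKM in RNAi and 4.44 ± 1.22 FPKM in WT (adjusted p = 0.896 by limma). Gh_D01G0225 had 6.01, 5.15, 4.24, 5.14 and 5.88 FPKM in RNAi, against 4.65, 4.17 and 3.51 FPKM in WT. All RNAi libraries of Gh_D01G0225 but replicate 4 were above the WT libraries, with a log2 fold change of 0.30 ± 0.15 (SE; limma adjusted p = 0.864).

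Gh_A10G1101 varied widely among the RNAi libraries, at 1.47, 5.65, 8.12, 2.14 and 2.97 FPKM, against 3.24, 2.73 and 3.73 FPKM in WT. RNAi replicates 3 and 4 were above the WT range and RNAi replicates 2 and 5 below it. The same replicates 3 and 4 were the 2 libraries with any value for Gh_A01G0177, at 2.92 and 2.96 FPKM. That gene was listed at 0 in RNAi replicates 2, 5 and 6 and in all WT libraries, and it did not pass the filter. Of the last 3 MRS2-2 genes, Gh_A08G0568 reached no more than 0.360 FPKM and the 2 scaffold genes were listed at 0 in every library.

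MRS2-7, of the endoplasmic reticulum in Arabidopsis, had a gene each on D07 and D08. Gh_D08G0662 had 1.79, 1.87, 1.26, 2.23 and 1.54 FPKM in RNAi, against 2.11, 3.48 and 3.63 FPKM in WT. RNAi replicate 5 lay above WT replicate 1, and the rest of RNAi lay below WT. The log2 fold change was -0.56 ± 0.19 (SE; 95% interval -0.98 to -0.15; limma adjusted p = 0.741). Gh_D07G2131 averaged 3.96 ± 0.581 FPKM in RNAi and 3.40 ± 1.07 FPKM in WT (SD, n = 5 and 3; limma adjusted p = 0.896).

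MRS2-11, which Arabidopsis places in the chloroplast envelope, had 4 low genes that summed to 7.77 ± 0.490 FPKM in RNAi and 7.13 ± 1.02 FPKM in WT (SD, n = 5 and 3). Their log2 fold changes ranged from -0.11 to 0.19, and the groups overlapped for each. Gh_A09G0832 passed the filter only through RNAi replicates 3, 5 and 6. MRS2-10, of the plasma membrane in Arabidopsis, had 1 gene. Gh_A09G0856 (MRS2-10) averaged 1.49 ± 0.428 FPKM in RNAi and 1.55 ± 0.405 FPKM in WT (SD, n = 5 and 3; limma adjusted p = 0.978).

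By level, the family was ordered alike at the top in both groups, apart from Gh_A01G0095. In RNAi, Gh_D01G0089 was followed by Gh_A04G1449, Gh_D12G1602, Gh_D04G1607 and Gh_A12G1477. The library ranges of Gh_D01G0089 and Gh_A04G1449 did not meet those of their neighbours in that order, while those of Gh_D12G1602, Gh_D04G1607 and Gh_A12G1477 overlapped. In WT, Gh_D01G0089 and Gh_A04G1449 were followed by Gh_A01G0095, Gh_D12G1602 and Gh_D04G1607. There the ranges of Gh_A01G0095 and Gh_D12G1602 overlapped, at 21.8 to 24.1 and 19.9 to 22.9 FPKM.

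The 27 members other than Gh_A01G0095 summed to 143.9, 138.2, 128.2, 127.6 and 134.0 FPKM in RNAi, against 135.5, 149.9 and 136.0 FPKM in WT. The ranges overlapped, with means of 134.4 ± 6.90 FPKM in RNAi (SD, n = 5) and 140.5 ± 8.15 FPKM in WT (SD, n = 3). Their mean was 6.10 FPKM lower in RNAi, less than the SD of either group, while Gh_A01G0095 itself was 21.1 FPKM lower. WT replicate 2 set much of the gap in the other members, which was 1.39 FPKM without it. Gh_A01G0095 made up 0.676% to 2.45% of all MRS2 FPKM in RNAi and 13.8% to 14.0% in WT. The whole family summed to 136.0 ± 6.47 FPKM in RNAi and 163.2 ± 9.38 FPKM in WT (SD, n = 5 and 3). No p is given for these sums, since the members were picked with the results known.

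**Figure D4:**
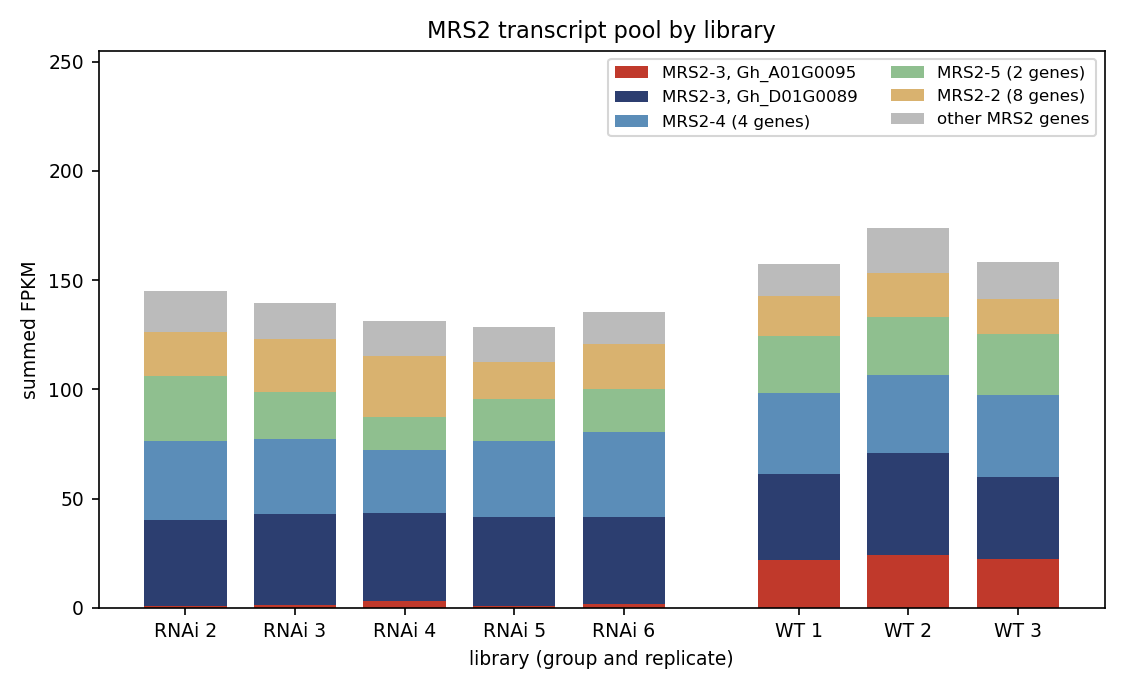
Summed FPKM of the 28 MRS2 genes in each library (vertical axis), stacked by gene or symbol, RNAi libraries left of WT libraries. The red segment, Gh_A01G0095, nearly vanishes in RNAi, and the rest of the bar sums to 127.6 to 143.9 FPKM in RNAi and 135.5 to 149.9 FPKM in WT.

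Genes outside the family that are linked to magnesium or other divalent cations were taken from 4 symbol lists of 187 genes in all. Of the 104 that were tested, 0 passed limma's threshold over all genes, which 0.167% of all tested genes passed. At an unadjusted p under 0.05 there were 4, a share no higher than the 5.86% of all tested genes. These 4 lay in the lists of other magnesium transporters (1 of 25 tested) and of other divalent cation transporters (3 of 47). The median log2 fold change was 0.01 in each of these lists, -0.10 in 26 calcium sensors and kinases and 0.07 in 6 genes of magnesium chelatase and the next step of chlorophyll synthesis.

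The list of other magnesium transporters holds CBSDUF genes, related to the animal CNNM magnesium transporters, MHX exchangers of the vacuole membrane and genes named after the bacterial importer mgtB. Gh_A11G2509 (CBSDUFCH2) had 4.72, 5.22, 6.16, 5.08 and 5.69 FPKM in RNAi, against 3.03, 1.82 and 3.83 FPKM in WT. The groups did not overlap, and the log2 fold change of 0.74 ± 0.18 (SE) did not pass (limma adjusted p = 0.386). Gh_A08G0632 (CBSDUF1) averaged 3.45 ± 0.428 FPKM in RNAi and 4.42 ± 0.700 FPKM in WT, and Gh_A01G0736 (CBSDUFCH1) 3.93 ± 0.738 FPKM in RNAi and 2.93 ± 1.09 FPKM in WT (SD, n = 5 and 3; limma adjusted p = 0.864 and 0.874).

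Among other divalent cation transporters, the CAX genes exchange calcium for protons at the vacuole membrane. Gh_D01G2229 (CAX3) had 16.5, 11.1, 16.8, 14.9 and 15.7 FPKM in RNAi, against 5.46, 6.56 and 10.1 FPKM in WT. The groups did not overlap. Its log2 fold change was 0.96 ± 0.20 (SE; 95% interval 0.52 to 1.40), which did not pass (limma adjusted p = 0.192). Gh_A01G1969 (CAX1) averaged 1.26 ± 0.360 FPKM in RNAi and 0.469 ± 0.206 FPKM in WT (SD, n = 5 and 3). All its WT values were under 1 FPKM, so it passed the filter only through RNAi libraries, and its test, among the 4 above, is not read. Gh_A10G1895 (MTP5), named after a metal tolerance protein, averaged 22.4 ± 2.41 FPKM in RNAi and 27.7 ± 2.47 FPKM in WT (SD, n = 5 and 3; limma adjusted p = 0.840).

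The sensor and kinase list holds CBL and CIPK symbols known in Arabidopsis for regulating magnesium storage in the vacuole. Its members of lowest p were Gh_A05G0601 (CIPK3), Gh_A09G1004 (CIPK3) and Gh_D11G1058 (CIPK9), with log2 fold changes of -0.27, 0.20 and -0.17 (limma adjusted p = 0.864, 0.877 and 0.881). In the chelatase list these were Gh_A08G2520 (CHLD), Gh_D07G0474 (CHLM) and Gh_D09G1147 (CHLH), with log2 fold changes of 0.25, -0.32 and 0.06 (limma adjusted p = 0.880, 0.881 and 0.948). Groups overlapped for each of these 6 genes.

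Finally, genes with identifiers numbered close to Gh_A01G0095 on A01 were examined, from 10 numbers before it to 20 after it. Of these 31 genes, 17 were tested. Of the 16 tested genes other than Gh_A01G0095, Gh_A01G0110 (TFT6, named after a tomato 14-3-3 protein) was the 1 past the threshold, which 0.167% of all tested genes passed. It was known from earlier results when this stretch was chosen. Gh_A01G0110 (TFT6) had 147.2, 156.6, 163.8, 157.2 and 164.1 FPKM in RNAi, against 2.19, 2.43 and 1.59 FPKM in WT. This gene, 15 identifiers from MRS2-3, was higher in every RNAi library than in any WT library. The other 15 tested genes had log2 fold changes from -0.43 to 0.49, adjusted p of at least 0.864 by limma, and 0 of them an unadjusted p under 0.05, beside 5.86% of all tested genes. They included Gh_A01G0091 (EXOSC8) and Gh_A01G0097 (TOR), the nearest tested genes on either side, at -0.05 and 0.05. The distance between these genes in bases was not determined.

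**Figure D5:**
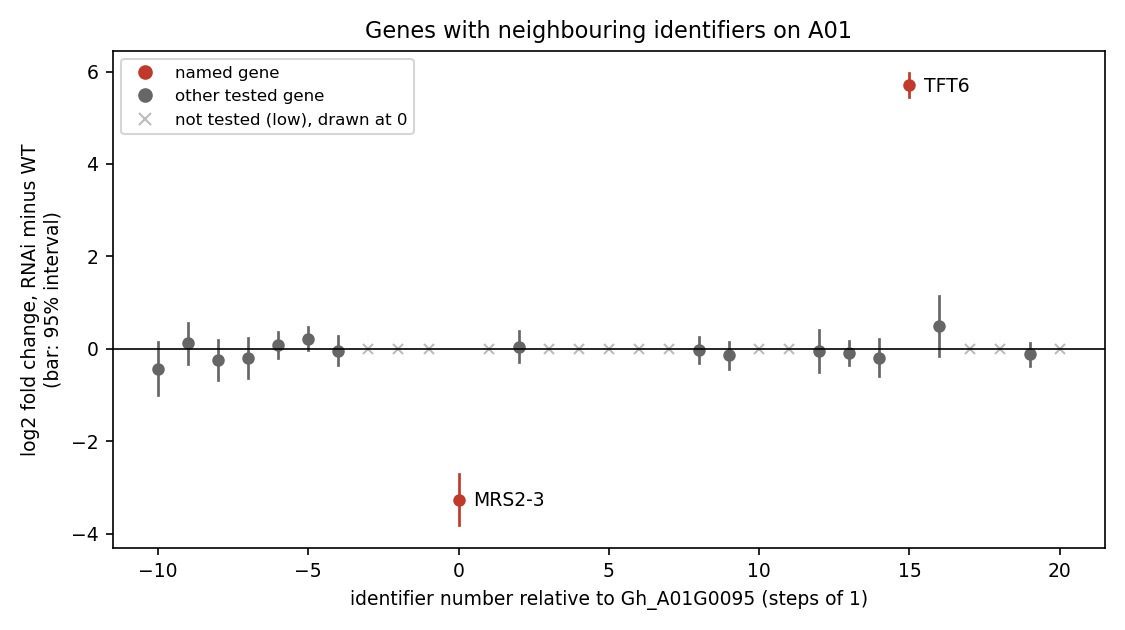
Log2 fold change of FPKM + 1 (RNAi minus WT, vertical axis) with 95% intervals for genes on A01, placed by identifier number relative to Gh_A01G0095 (horizontal axis). MRS2-3 and TFT6, in red, lie far from 0 in opposite directions, and the other 15 tested genes lie between -0.43 and 0.49. No test is read from the interval of MRS2-3, the gene the family was picked for.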

How the data were processed

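The authors deposited 1 table of FPKM values per gene, with a column for each of 8 libraries (5 RNAi, 3 WT) of the 9 that the labels list. Per the submitters' processing notes, FastQC, HISAT2 and DESeq 1.10.1 were used, without a stated role. The sources used here give no genome build, annotation, read counter or rule for reads shared between gene copies. Columns were matched to samples by group letters and replicate number. Column sums ranged from 1200830 to 1296910 FPKM. The absolute depth is unknown. Relative depth was the most frequent ratio of values under 0.5 FPKM between libraries.

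A filter of 1 FPKM in 3 libraries left 34051 genes. Their log2(FPKM + 1) was compared by limma 3.58.1 (R 4.3.3; trend, two-sided, Benjamini-Hochberg over all tested genes, threshold 0.05). The fit was tested on simulated data with normal noise. Changes as small as those of the other MRS2 genes, and changes of low genes, were not planted there. Members and lists were chosen with earlier results of these data known. Genes named are all members, up to 3 genes of lowest p per list, and the 5 highest and 5 lowest in correlation with Gh_A01G0095. Genes numbered from 10 before to 20 after it on A01 were also read. Alternatives were pseudocounts of 0.1 and 0.01, other filters and scalings, a replicate block, no trend, array weights and single libraries left out. Sequences were not used here.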

Additional observations from a re-analysis of the deposited data

Results flagged for a closer look

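In 3 of the 18 tested MRS2 genes, 1 RNAi library stood apart from the other 4. Its gap to its nearest neighbour was above 0.710 of the whole RNAi range. For Gh_A01G0095 (MRS2-3) this was RNAi replicate 4, at 3.22 FPKM (gap 0.720 of the range). For Gh_D04G1607 (MRS2-4) it was also RNAi replicate 4, at 8.89 FPKM (0.714). For Gh_D09G0837 (MRS2-11) it was RNAi replicate 3, at 2.24 FPKM (0.759). Chance alone gives such a gap in about 1 of 20 groups of 5 libraries. The 35 groups examined were more than the RNAi groups of the 18 tested MRS2 genes. RNAi replicate 4 had the lowest relative depth, 0.366, and the part of depth in its values was not tested.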

How the results depend on the processing

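No other MRS2 gene and none of the 104 other tested genes that handle magnesium or divalent cations passed the threshold under any of 17 alternatives to the limma fit. The count of all genes past the threshold was 57 and changed more than 1.5 times with a pseudocount of 0.01 (35), a filter of 5 FPKM (36), array weights (88) or the replicate block (313). It ranged from 33 to 58 with single libraries left out, with 33 without WT replicate 2 or WT replicate 3, 34 without RNAi replicate 5 and 37 without RNAi replicate 2. The labels give no link between same-numbered libraries beyond the number. Correlations of their deviations were 0.350 for replicate 2 and -0.0930 for replicate 3. The first was the highest of all pairs of an RNAi and a WT library, with 0.227 next. Whether these libraries share a batch was not tested. The block left 1 residual degree of freedom, and 0 MRS2 genes other than Gh_A01G0095 passed under it. Its RNAi minus WT difference rests on replicates 2 and 3, the numbers present in both groups. Gh_A12G1477 (MRS2-5) then had a log2 fold change of 0.79, against 0.36 without the block. Its limma p under the block was 0.0040 unadjusted and 0.120 adjusted. With the block, 3 of the other MRS2 genes had an unadjusted p under 0.05, beside 5442 of all 34051 tested genes. Besides Gh_A12G1477 these were Gh_D12G1602 and Gh_D08G0662, both lower in RNAi, at -0.49 and -0.69. The upper bounds given above are those of the fit without the block. The RNAi minus WT difference in the sum of the other MRS2 genes was -4.67 FPKM after median ratio scaling and -3.12 after scaling to TPM, and ranged from -8.58 to -1.39 with single libraries left out. In 13 cases a log2 fold change near 0 changed sign, with no call involved. With array weights Gh_D04G1607 stood at -0.017 and Gh_A13G1942 at -0.027, and with the block Gh_A10G1101 at -0.051 and Gh_A13G1942 at -0.0053. With single libraries left out, the values ranged from -0.083 to 0.064 for Gh_D01G0089, -0.0995 to 0.094 for Gh_D04G1607, -0.125 to 0.084 for Gh_D10G1509, -0.155 to 0.316 for Gh_A10G1101 and -0.151 to 0.079 for Gh_A09G0856. The cause was not tested. With 5 and 3 libraries and no read counts, small changes of low genes could not be resolved.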

Other observations

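The genes with a pattern most like Gh_A01G0095 over the 8 libraries, by Pearson's r of log2(FPKM + 1), were Gh_A08G0104 (YLS3, 0.994), Gh_A11G1410 (At2g04570, 0.991), Gh_A08G0161 (SBT2.5, a subtilisin-like protease, 0.990), Gh_A11G1848 (At5g10290, 0.990) and Gh_A03G2066 (ISY1, a splicing factor, 0.978). Each was lower in RNAi with groups that did not overlap, for example SBT2.5 at 5.41 ± 0.773 FPKM in RNAi and 12.1 ± 0.403 FPKM in WT (SD, n = 5 and 3). The most opposite were Gh_D09G1418 (UBQ11, a polyubiquitin, -0.991), Gh_A11G1434 (CPX1, of tetrapyrrole synthesis, -0.988), Gh_D06G2309 (NACK2, a kinesin of cell division, -0.986), Gh_D09G1844 (SAP7, -0.986) and Gh_A11G1406 (At1g04970, -0.980). The libraries form 2 groups, so these values mostly restate the difference between RNAi and WT and are given as a description. NACK2 and At1g04970 were under 1 FPKM in every WT library. They passed the filter only through RNAi libraries, so their sign is tied to the filter. Among the MRS2 genes, r with Gh_A01G0095 ranged from -0.78 for Gh_D01G0225 (MRS2-2) to 0.71 for Gh_D08G0662 (MRS2-7), and was 0.16 for the D01 namesake Gh_D01G0089.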
